A study of Monodelphis domestica and Mus musculus with 2 samples.

Results

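The genes described here encode 9 molecules of the perineuronal net and of the wider brain matrix that shares its parts. They are Acan, Bcan, Ncan, Vcan, Hapln1, Hapln4, Tnr, Cspg5 and Ptprz1, and their features were chosen by symbol, without regard to case. The rule uses no measured value, but the list of genes was drawn up with earlier results of these data known. All 9 were found among the 61317 features of the mouse table and 7 among the 30613 features of the opossum table. No opossum feature carries the symbol Ncan or Vcan, so these genes were not analysed here in the opossum.

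A perineuronal net is a lattice of extracellular matrix that wraps the cell body and proximal dendrites of some neurons, in cortex above all the fast-spiking interneurons that express parvalbumin. Its backbone is hyaluronan, to which the lecticans (aggrecan, brevican, neurocan and versican, the products of Acan, Bcan, Ncan and Vcan) bind through link proteins such as those made from Hapln1 and Hapln4, and tenascin-R, the product of Tnr, crosslinks the lecticans at their other end. The parts of a net need not be made by the neuron it surrounds, because glia also secrete matrix proteins into the space that cells share.

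The samples were 1 coronal section of a block with several cortical slices for each species, measured by Stereo-seq, which captures polyadenylated RNA on a chip of barcoded spots and sums unique molecular identifiers (UMIs) over segmented cells. The opossum (Monodelphis domestica) was a male of about 6 months from a laboratory colony, and the mouse was a wild-type C57BL/6J male of about postnatal day 40. Neither animal was treated, and with 1 animal and 1 library per species no test between species or between cell types was possible. RNA integrity numbers were 7.1 (opossum) and above 9 (mouse), reads were aligned to a custom opossum genome with extended gene ends and to the mouse build GRCm39, and the ages differ, so that species, age, RNA quality and annotation cannot be told apart.

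All values are for cells of the primary visual cortex (V1) that passed the authors' filter, 4806 opossum cells in 3 regions and 9127 mouse cells in 4 regions, with 6933475 and 12522687 UMIs in all. Median depth was 1326 UMIs per cell in opossum and 1305 in mouse, and region medians ran from 1048 to 1503 and from 1259 to 1343. No barcode was shared by the libraries. A subclass holds the cells whose subclass and class labels agree, which were 3681 of 4564 labelled opossum cells and 7105 of 7653 labelled mouse cells. The level of a gene is its UMIs per 10000 UMIs of the subclass, followed in brackets by the exact 95% Poisson interval, and a fold is the level in a subclass over that in all other labelled cells, with the exact conditional binomial interval. Both intervals cover counting error only. Because the labels rest on the same counts, levels and folds are descriptions, and V1 regions of 1 animal are not replicates. UMIs were counted near the 3′ ends of transcripts, so that levels are compared between cells and never between genes.

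Markers of the main source cells stood highest under the matching label, and RNA of other cells was present in the subclasses as well. Opossum Pvalb cells had a fold of 14.8 for Erbb4, astrocytes (Astro) of 6.74 for Slc1a2, oligodendrocytes (OD) of 8.92 for Mog, and oligodendrocyte precursors (OPC) of 47.3 for Pdgfra. In the mouse, Pvalb cells had a fold of 3.86 for Pvalb itself and 19.5 for Erbb4, astrocytes of 4.85 for Aqp4, OD of 5.29 for Mog and OPC of 9.25 for Pdgfra. The opossum OPC label rests on few cells, since only 29 of 100 cells with that subclass also carried the non-neuronal class. Olig2, a defining factor of the lineage, had 0 UMIs in them. Its level was only 0.00358 in the other labelled cells, so this gene was too sparse to speak for or against the label. The OPC sum of 3 endothelial markers, 2.63, was the highest of the opossum subclasses, against 0.855 in the glutamatergic class. A marker in the wrong cells sets the scale for weak differences: mouse Slc17a7, the vesicular glutamate transporter of cortical excitatory neurons, stood at 10.5 in the glutamatergic class against a fold of only 1.01 over the other classes. The summed level of 8 astrocyte markers was 94.6 in opossum astrocytes and from 31.4 to 53.0 in Pvalb, OPC and OD cells, and 38.6 in mouse astrocytes against 17.9 to 23.8 in those subclasses. The part of stray RNA in the levels below was not tested. Cells picked by a marker UMI, given below, are another set. In the opossum 1677 cells had a Gad1 or Gad2 UMI, against 197 labelled Pvalb cells, and 630 an Aqp4 UMI, against 359 astrocytes. In the mouse 1374 had a Pvalb UMI, against 150 labelled Pvalb cells, and 185 an Aqp4 UMI, against 429 astrocytes. Such sets take in cells of other subclasses or leave out labelled cells, so their folds cannot decide whether a label result holds.

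In the mouse genome (GRCm39, GENCODE annotation) the lecticans lie next to link protein genes. Acan (chromosome 7, 78702964 to 78764847, plus strand) is followed by Hapln3 after 0.002 kb, and Bcan (chromosome 3, 87894835 to 87910177, minus strand) is 16.6 kb from Hapln2. Vcan (chromosome 13, 89803431 to 89890814, minus strand) is 43.5 kb from Hapln1 (chromosome 13, 89686581 to 89759950, plus strand). Ncan (chromosome 8, 70538926 to 70573523, minus strand) overlaps Hapln4 (chromosome 8, 70536106 to 70543533, plus strand) tail to tail by 4.61 kb, and 1255 exon bases, 31.3% of the exon bases of Hapln4, belong to both. Whether reads were counted by strand is not given in the sources used here, so mouse Hapln4 and Ncan counts are uncertain with respect to each other. Tnr (chromosome 1, 159351339 to 159759299, plus strand), Cspg5 (chromosome 9, 110072851 to 110091644, plus strand) and Ptprz1 (chromosome 6, 22875358 to 23054236, plus strand) have no such partner. In the opossum RefSeq annotation the same lectican and link protein genes are neighbours with 0 genes between them, and none of the gene spans overlap.

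Acan encodes aggrecan, the lectican most used to define perineuronal nets, and it was the sparsest of the 9 genes, with 36 UMIs in opossum V1 and 35 in mouse V1. In the mouse, Pvalb cells held 5 of the 25 UMIs in labelled cells, a level of 0.211 [0.0684 to 0.492] and a fold of 10.2 [3.00 to 28.1]. These 5 UMIs came from 3 of 150 cells, and the level was 0.264 and 0.649 in the first 2 regions and 0 in the other 2. Without the cell that held the most, a comparison added after the data had been seen, the fold was 6.19 [1.18 to 20.9]. In the 1374 mouse cells with a Pvalb UMI the Acan fold was 1.82 [0.780 to 3.93], with an interval that held 1. Vip cells had 2 UMIs, both in 1 of 25 cells, a level of 0.602, and no other mouse subclass exceeded 0.0472. In the opossum no Acan UMI was found among the 350443 UMIs of Pvalb cells, which allows a level of up to 0.0856 (3 counts), so that a level like that of the other labelled cells, 0.0550, was not detectable as different at this depth. The highest opossum levels were 0.141 in IT_B neurons, from 3 UMIs in 1 of 126 cells, and 0.132 [0.0485 to 0.288] in astrocytes, from 6 UMIs that lay in all 3 regions. The astrocyte fold was 2.97 [0.990 to 7.51]. Acan fell under the minimum of 100 UMIs set for the count of called genes in both species.

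Bcan encodes brevican, a short lectican that is abundant in the adult brain. It had its highest opossum level in OPC, at 6.99, 5.10 and 6.34 in the 3 regions. All 3 regions lay far above the level of 0.582 in the other labelled cells. The pooled level was 5.98 [3.87 to 8.83] and the fold 10.3 [6.55 to 15.4], the fifth highest of 8210 genes in that subclass. OD cells followed with 1.46 [1.06 to 1.96], a fold of 2.54 [1.81 to 3.49], and the OPC level was 4.10 [2.40 to 6.85] times theirs. Astrocytes had 1.04 [0.761 to 1.38], with 1.01 and 1.40 in the first 2 regions and 0.235 in the third. The 25 OPC UMIs lay in 12 of 29 cells, where an even spread would have reached 15.5, so the Poisson interval is too narrow. With the subclass label alone the OPC level was 2.63, and in cells with a Pdgfra UMI in place of the label the fold was 2.29. In the same way, the fold in cells with a Mog UMI was 1.02 against 2.54 in labelled OD cells. The summed astrocyte markers of OD cells stood at 53.0 against 34.5 in the glutamatergic class. The part of stray RNA in their Bcan level was not tested.

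In the mouse the highest Bcan level was in astrocytes, with 1.35, 1.99, 1.98 and 1.05 in the 4 regions, all above the 0.665 of the other labelled cells. The pooled level was 1.54 [1.23 to 1.92] and the fold 2.32 [1.82 to 2.92]. Mouse OPC stood at 1.25 [0.790 to 1.87], and the ratio of OPC to astrocytes was 0.808 [0.485 to 1.30], against 5.78 [3.41 to 9.58] in the opossum. The difference between these ratios was not tested, because each comes from 1 animal. Mouse Pvalb cells had 1.18 [0.784 to 1.71] and a fold of 1.68 [1.11 to 2.46]. The order among the first mouse subclasses was not resolved, since the interval of every ratio between neighbours in the order held 1. In mouse cells with an Aqp4 UMI the Bcan fold was 1.02.

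Ncan encodes neurocan, a lectican that is prominent during brain development. Its mouse level was almost flat across subclasses. It ran from 0.545 in L6b neurons (2 UMIs) to 2.42 [1.46 to 3.78] in L5NP neurons, and the 15 subclasses between them held 0.902 to 2.05. Astrocytes had 1.92 [1.57 to 2.33], OPC 1.95 [1.37 to 2.70] and Pvalb cells 1.52 [1.06 to 2.10], and the folds of these 3 were 1.11, 1.12 and 0.868 with intervals that all held 1. Microglia (Micro), which are not known as makers of lecticans, had 0.992 and a fold of 0.564 [0.348 to 0.864]. For no pair of neighbours in the order of the 17 subclasses did the interval of the ratio leave out 1.

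Vcan encodes versican, the largest lectican. In mouse OPC it was at 0.989, 1.90, 1.15 and 2.78 in the 4 regions, and the fold within a region ran from 9.10 to 25.7. The pooled level was 1.46 [0.965 to 2.13] against 0.102 in the other labelled cells, a fold of 14.3 [8.97 to 22.0] and the second highest of 10670 genes. The 27 UMIs came from 18 of 129 cells. Endothelial cells were next with 0.194, and OPC exceeded them 7.54-fold [2.86 to 25.1]. No other subclass was higher than 0.190. The OPC fold was 28.2 when only cells labelled in the first round of label transfer were taken (16 cells) and 2.77 in cells with a Pdgfra UMI.

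**Figure D1:**
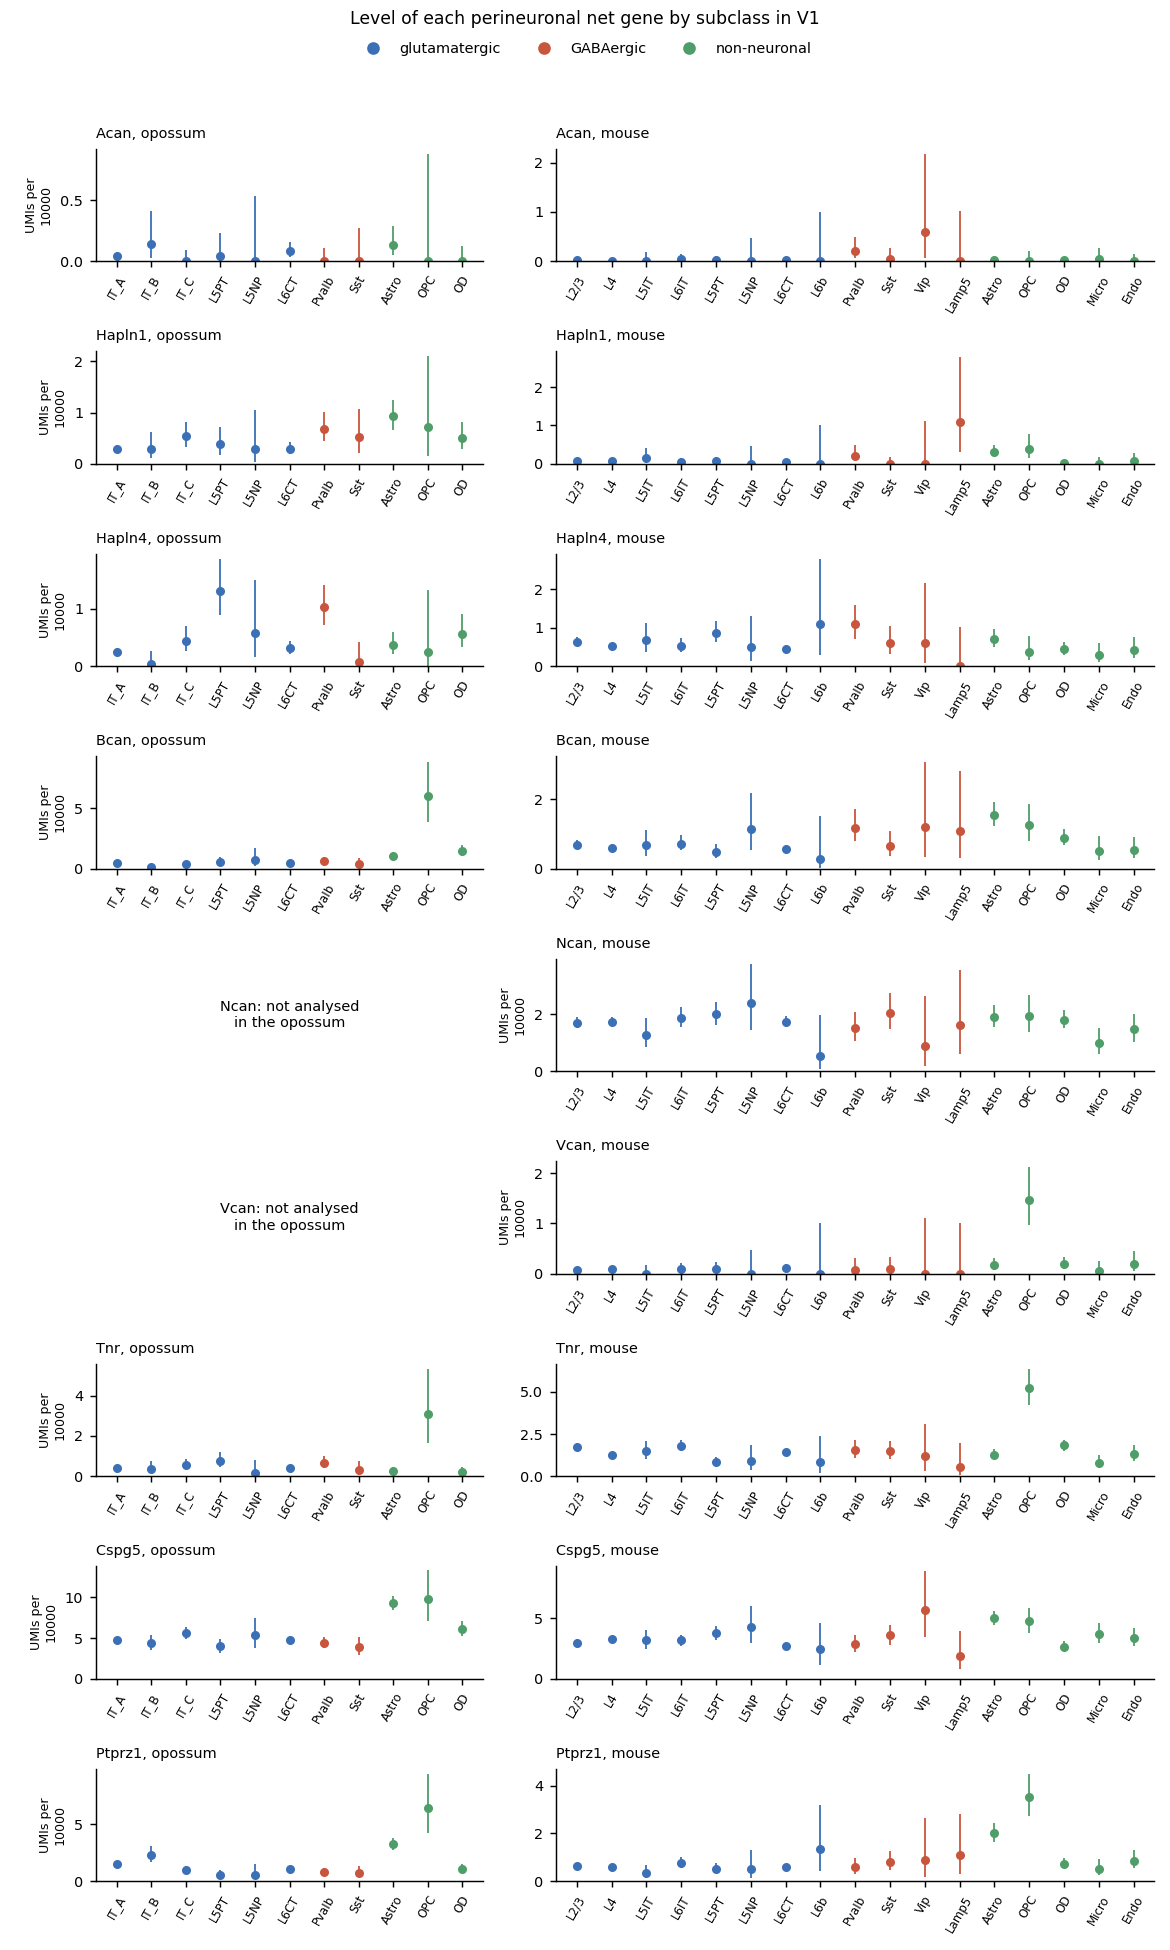
Level of each gene in UMIs per 10000 (vertical axis, from 0, scaled for each panel) in every subclass with at least 25 cells, opossum on the left and mouse on the right. Points are pooled levels coloured by class, and bars are exact 95% Poisson intervals. Bcan, Tnr and Ptprz1 in opossum and Vcan, Tnr and Ptprz1 in mouse stand highest in OPC, while mouse Ncan is nearly level.

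The link proteins lock lecticans onto hyaluronan. Hapln1, which encodes the link protein that is also found in cartilage, was highest in opossum astrocytes among the 11 opossum subclasses with at least 25 cells. Its levels there were 0.949, 0.899 and 0.938 in the 3 regions, a pooled level of 0.925 [0.667 to 1.25] and a fold of 2.48 [1.73 to 3.48]. Opossum OPC had 0.718 from 3 UMIs and Pvalb cells 0.685 [0.439 to 1.02], a fold of 1.71 [1.07 to 2.62]. In cells with an Aqp4 UMI the opossum fold was 1.21. The 13 opossum Lamp5 cells, too few for the main set, held 6 Hapln1 UMIs among 14638 UMIs in all. Their level was thus above that of astrocytes, but from very few cells.

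In the mouse, Hapln1 had 114 UMIs in V1. Astrocytes stood at 0.131, 0.629, 0.270 and 0.421 in the 4 regions, 0.301 [0.172 to 0.489] pooled, with a fold of 4.05 [2.19 to 7.04]. That fold was 0.692 in cells with an Aqp4 UMI. Lamp5 interneurons had the highest level, 1.10 [0.298 to 2.80], but from 4 UMIs in 31 cells, with values in 2 of 4 regions. The gene Lamp5 itself was at 2.46 in these cells and 2.81 in L2/3 neurons, so its marker does not set the Lamp5 label apart. Mouse OPC had 0.379 from 7 UMIs, of which 5 were in 1 cell and all 7 in region 1. Without that region the OPC level was 0, and without that cell, again a comparison added after the data had been seen, the fold was 1.35 rather than 4.69. Pvalb cells stood at 0.211, with 5 UMIs and a fold of 2.53 [0.798 to 6.14].

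Hapln4 encodes a link protein made in the brain and found at perineuronal nets and inhibitory synapses. It was counted in neurons of both main classes and in glia. Opossum Pvalb cells had 0.859, 1.04 and 1.54 in the 3 regions, each above the 0.343 of the other labelled cells. The pooled level was 1.03 [0.719 to 1.42] and the fold 2.99 [2.03 to 4.30]. In opossum cells with a Gad1 or Gad2 UMI, the marker used because Pvalb has no symbol there, the fold was 1.88 [1.47 to 2.40], under 2. Opossum L5PT neurons, which project below the cortex from layer 5, were at 1.30, 1.59 and 0.369, a pooled level of 1.31 [0.893 to 1.87] and a fold of 3.81 [2.52 to 5.59]. L5PT and Pvalb cells did not separate, with a ratio of 1.28 [0.765 to 2.13]. Sst interneurons, the other large inhibitory subclass, had 1 Hapln4 UMI against 36 in Pvalb cells, a ratio of 13.8 [2.32 to 559]. IT_B neurons also had 1 UMI, a level of 0.0472. The level of 3 Pvalb markers was 4.75 in opossum L5PT cells and 38.6 in Pvalb cells.

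In the mouse, the Hapln4 level of Pvalb cells was 0.792, 0.325, 1.53 and 1.92 in the 4 regions, so that region 2 lay below the 0.545 of the other labelled cells. The pooled level was 1.10 [0.716 to 1.61] and the fold 2.01 [1.30 to 2.98]. This fold passed 2 by little. It was 1.79 without the cell with the most UMIs, 1.69 without region 4, and 1.35 in cells with a Pvalb UMI. L5PT neurons had 0.485, 1.09, 1.22 and 0.790, a pooled level of 0.873 [0.632 to 1.18] and a fold of 1.61 [1.15 to 2.20]. Mouse Sst cells were at 0.607, and the ratio of Pvalb to Sst was 1.81 [0.895 to 3.83]. Mouse astrocytes were at 0.696. The 26 mouse L6b neurons were at 1.09, and the ratio of Pvalb to L6b was 1.01 [0.349 to 3.96].

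Tnr encodes tenascin-R, a glycoprotein of oligodendrocyte lineage cells and some neurons. It was highest in OPC in both species. Opossum OPC had 2.10, 2.55 and 6.34 in the 3 regions against 0.426 in the other labelled cells. The pooled level was 3.11 [1.66 to 5.32] from 13 UMIs, and the fold was 7.30 [3.83 to 12.7]. The UMIs lay in 7 of 29 cells, where an even spread would have reached 9.96, so these intervals are too narrow. A single cell held 5 of them. Without it, a comparison added after the data had been seen, the fold was 4.65 [1.99 to 9.32]. Mouse OPC had 6.37, 4.56, 2.30 and 5.56 in the 4 regions, 5.20 [4.22 to 6.36] pooled, with a fold of 3.60 [2.90 to 4.43]. The level in mature OD cells was far lower in both species, 0.232 in opossum and 1.83 in mouse, and OPC exceeded OD 13.4-fold [4.97 to 39.7] and 2.85-fold [2.16 to 3.75]. A single mouse OD cell held 21 of the 125 Tnr UMIs of its subclass, and the OD fold was 1.22 with it and 1.02 without it. Astrocytes stood at 0.264 in opossum and 1.28 in mouse, with folds of 0.572 [0.291 to 1.02] and 0.838 [0.647 to 1.07] whose intervals held 1. The opossum OPC level depended on the labels. It was 1.39 with the subclass label alone, and the fold in cells with a Pdgfra UMI was 1.19 in opossum and 1.54 in mouse.

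Ptprz1 encodes a receptor tyrosine phosphatase that carries chondroitin sulfate, whose secreted form, phosphacan, binds tenascin-R. By the labels, OPC and astrocytes had the highest levels in both species. Opossum OPC had 9.79, 5.10 and 3.80 in the 3 regions, a pooled level of 6.46 [4.26 to 9.40] and a fold of 4.53 [2.97 to 6.64]. Opossum astrocytes had 3.62, 3.30 and 2.35, a pooled level of 3.24 [2.74 to 3.81] and a fold of 2.48 [2.06 to 2.97]. Mouse OPC had 3.85, 3.80, 3.45 and 2.47 in the 4 regions, 3.52 [2.72 to 4.49] pooled and a fold of 5.02 [3.83 to 6.48]. Mouse astrocytes had 2.00, 2.52, 0.899 and 2.84, a pooled level of 2.01 [1.65 to 2.43] and a fold of 2.95 [2.38 to 3.62]. OPC exceeded astrocytes 2.00-fold [1.27 to 3.02] in opossum and 1.75-fold [1.27 to 2.40] in mouse. In cells picked by a marker UMI in place of the label, the OPC folds (Pdgfra) were 1.79 [1.27 to 2.46] for the opossum and 1.82 [1.29 to 2.51] for the mouse, both under 2. The astrocyte folds (Aqp4) were then 1.15 [0.974 to 1.36] for the opossum and 0.905 [0.565 to 1.38] for the mouse, with intervals that held 1. Among opossum neuron subclasses with at least 25 cells, IT_B had the highest level, at 2.31. Its fold was 1.62 [1.19 to 2.16], and above 1 in all 3 regions. The share of cells with a Ptprz1 UMI after thinning to equal depth did not set IT_B apart. It was 5.98% in IT_B (7 of 117 cells), 6.64% in IT_C, 5.68% in IT_A, 5.06% in L6CT and 3.66% or less in the others. The astrocyte marker sum of IT_B was 29.1, against 34.5 in the glutamatergic class, and the part of stray RNA was not tested. Opossum Pvalb cells were low, at 0.828 and a fold of 0.550 [0.366 to 0.796].

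Cspg5 encodes neuroglycan C, a membrane proteoglycan made by neurons and glia. It was the most counted member, with 3659 UMIs in opossum V1 and 4079 in mouse V1, and it varied little. Opossum astrocytes had 9.08, 8.84 and 10.7 in the 3 regions, and the folds were 1.91 [1.71 to 2.11] in astrocytes and 1.89 [1.35 to 2.57] in OPC. Mouse astrocytes had 4.53, 6.08, 6.11 and 3.79 in the 4 regions, and the folds were 1.60 [1.41 to 1.82] in astrocytes and 1.49 [1.19 to 1.85] in OPC. The highest mouse level was 5.71, in 25 Vip cells, with a ratio to astrocytes of 1.14 [0.676 to 1.82]. In the opossum the highest was 9.81 in OPC, beside 9.27 in astrocytes. OPC and astrocytes did not separate, with ratios of 1.06 [0.748 to 1.46] and 0.953 [0.740 to 1.22]. OD cells were above the other cells in the opossum, with a fold of 1.19 [1.02 to 1.38], and below them in the mouse, with 0.819 [0.702 to 0.951]. These 2 folds changed side in cells with a Mog UMI in the opossum (0.908) and with first-round labels in the mouse (1.05). In the 185 mouse cells with an Aqp4 UMI, a set that differs from the 429 labelled astrocytes, the fold was 1.00 [0.817 to 1.22].

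**Figure D2:**
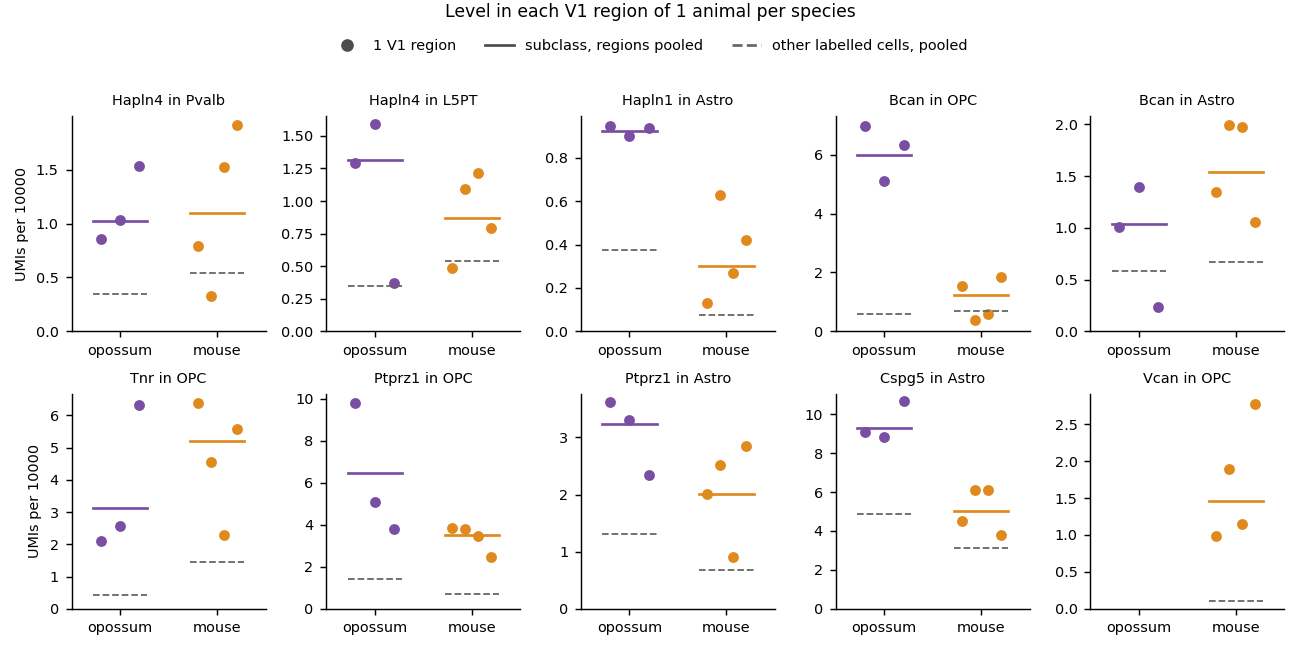
Level in UMIs per 10000 (vertical axis, from 0) of the gene and subclass named above each panel, with 1 point per V1 region, 3 in opossum and 4 in mouse. Solid lines are the pooled subclass and dashed lines the other labelled cells. Bcan in opossum OPC, at 5.10 to 6.99, lies above the dashed line in every region, whereas Hapln4 in mouse Pvalb cells falls below it in region 2, at 0.325.

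The count of members past a fixed fold was set beside that of all genes. A gene was called where its fold in a subclass was 2 or more, among genes with at least 100 UMIs in labelled cells. In opossum OPC 3 of the 6 members tested were called (Bcan, Tnr and Ptprz1), where 12.1% of 8210 genes were, and in mouse OPC 3 of 7 (Vcan, Tnr and Ptprz1), where 5.01% of 10670 genes were. In counts simulated with Poisson spread only, 8.50% of unchanged genes were called in opossum OPC and 2.31% in mouse OPC. In astrocytes the called members were Hapln1 and Ptprz1 in the opossum, where 3.98% of genes were called, and Bcan and Ptprz1 in the mouse, where 2.76% were. In Pvalb cells Hapln4 was the only member called in either species, against 3.58% of opossum genes and 4.35% of mouse genes. In OD cells Bcan was called in the opossum, where 3.64% of genes were, and 0 of 7 members in the mouse, where 1.73% were. The median log2 fold of the members was 1.55 in opossum OPC and 0.83 in mouse OPC, against -0.18 and -0.04 over all genes. In Pvalb cells it was 0.31 in opossum and -0.17 in mouse, against -0.05 and -0.06. Mouse Hapln1, with 86 UMIs in labelled cells, and Acan were left out of these counts by the minimum.

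**Figure D3:**
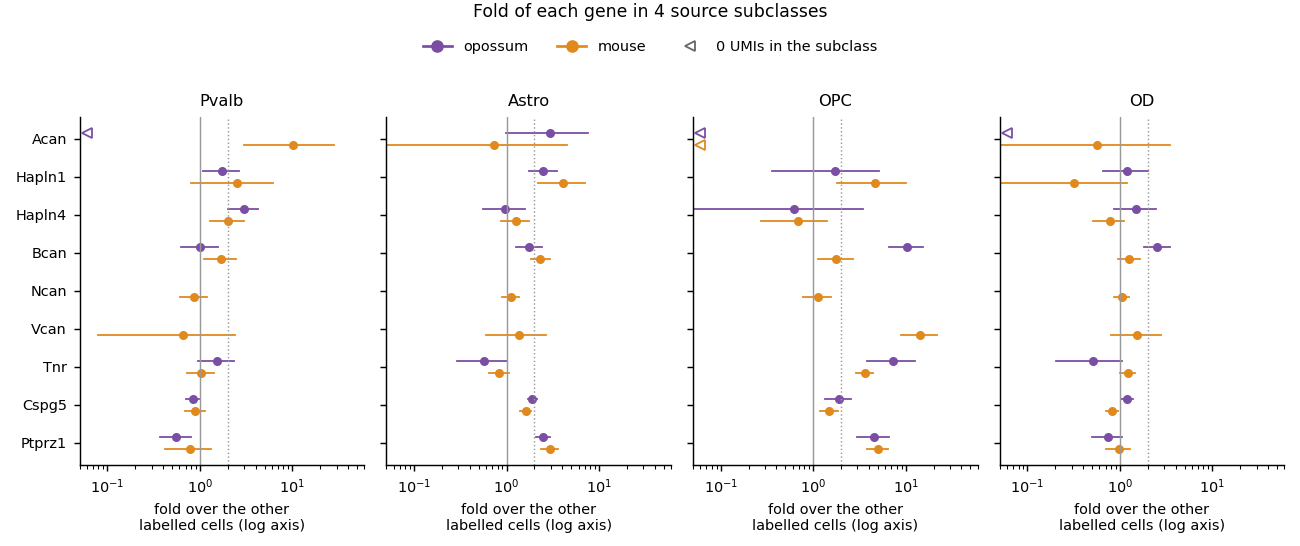
Fold of each gene in Pvalb, Astro, OPC and OD cells over all other labelled cells (horizontal log axis), opossum and mouse. Points are pooled folds, bars exact 95% intervals (some run past the left edge), triangles mark 0 UMIs in the subclass, and the solid and dotted lines stand at 1 and 2. Only Acan, Hapln1 and Hapln4 have a point above 2 in Pvalb cells, all 3 in the mouse and Hapln4 alone in the opossum.

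Although several members had their highest level in glia, most UMIs of most members came from the more numerous neurons. Glutamatergic cells held 75.8% of all UMIs of labelled opossum cells and 75.7% in the mouse. Their part of Bcan UMIs was 57.7% (Clopper-Pearson 95% interval 52.3 to 62.9) in opossum and 65.8% (62.2 to 69.3) in mouse, and that of Ptprz1 was 68.5% and 60.9%. For Tnr it was 75.7% (69.9 to 80.9) and 72.2% (69.9 to 74.5), and for mouse Ncan 76.3% (74.2 to 78.3). Mouse Vcan had 53.5% (44.5 to 62.4) in glutamatergic cells and 21.3% (14.5 to 29.4) in OPC, which held 1.86% of all UMIs. Pvalb cells held 16.6% (11.9 to 22.2) of opossum Hapln4 UMIs and 4.68% (3.08 to 6.79) of those in the mouse, for 6.23% and 2.39% of all UMIs. How many of the UMIs in neurons were stray was not tested.

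Along the depth of V1, taken without any label as 0 at the top and 1 at the bottom of a region, Hapln4 differed most from the average in the opossum. In a mean depth each cell was weighted by the gene's share of its UMIs, and the reference was the mean depth of all cells. For Hapln4 the mean depth was 0.625, 0.663 and 0.528 in the 3 regions and 0.624 pooled. The reference was 0.493, and Hapln4 lay deeper in 3 of 3 regions. Its level was 0.0714 in the top bin of 10 equal depth bins and 1.06 [0.841 to 1.32] in the eighth bin, and it was 0.251 at the bottom. The median relative depth of labelled opossum L5PT cells was 0.713, and they held 31 of the 217 Hapln4 UMIs of labelled cells (278 in all V1 cells). Mouse Hapln4 was centred, at 0.484 against 0.487 for all cells, with its highest level of 0.869 [0.714 to 1.05] in the sixth bin and 0.333 at the bottom. The median depth of labelled mouse L5PT cells was 0.546, and they held 43 of its 555 UMIs in labelled cells (751 in all V1 cells). Mouse Hapln1 was shallow, at 0.361, 0.378, 0.353 and 0.357 in the 4 regions, with 0.277 [0.181 to 0.406] in the top bin and 0.140 or less below. The 31 mouse Lamp5 cells had a median depth of 0.0957, but 3 of them held a Hapln1 UMI, while the top bin held 26 UMIs of the gene. Which cells the Hapln1 UMIs of the top bin came from was not tested. Mouse Vcan lay deep, at 0.562 and in 4 of 4 regions deeper than all cells. Opossum Ptprz1 was shallow, at 0.449 and in 3 of 3 regions, with 1.95 in the fourth bin and 0.901 in the eighth, while mouse Ptprz1 was at 0.495. The other members lay within 0.0291 of the mean depth of all cells, apart from Acan, with mean depths of 0.433 and 0.455 from 36 and 35 UMIs.

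**Figure D4:**
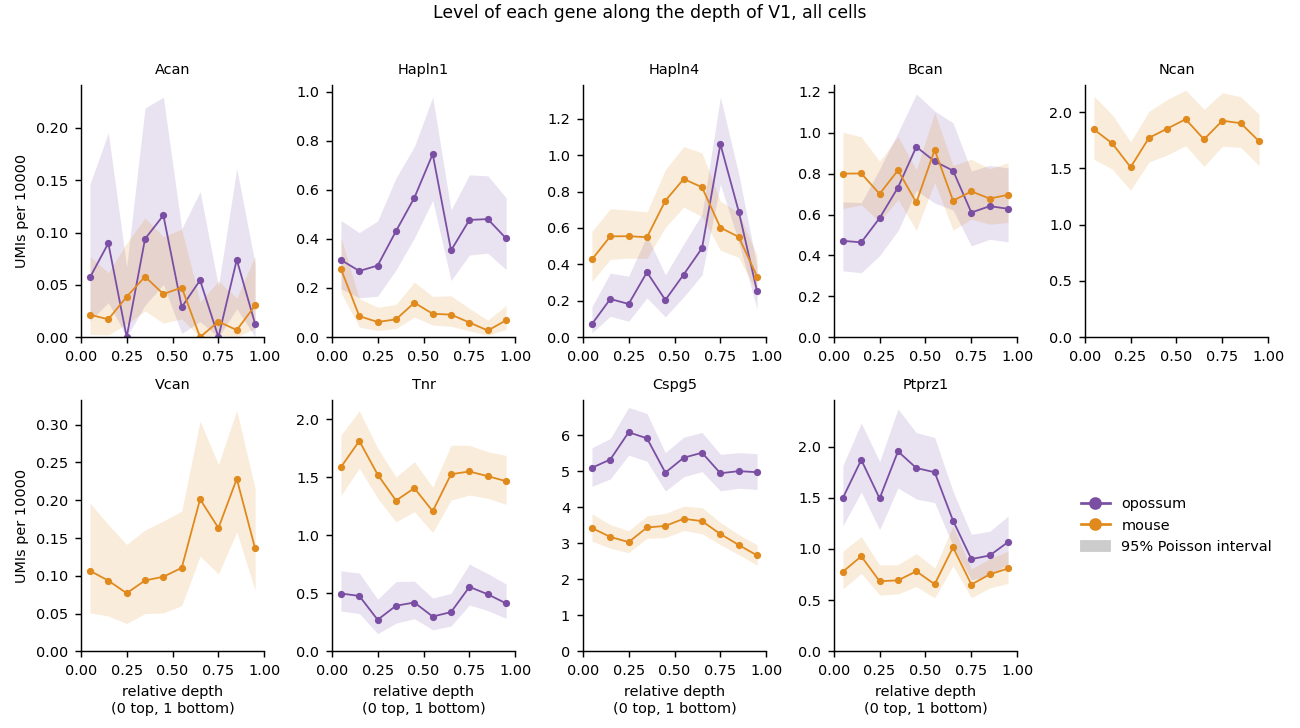
Level of each gene in UMIs per 10000 (vertical axis, from 0) in 10 equal bins of relative depth (0 at the top, 1 at the bottom), all V1 cells, with exact 95% Poisson bands. Opossum Hapln4 climbs to 1.06 in the eighth bin, mouse Hapln4 has its highest value of 0.869 in the sixth, and mouse Hapln1 is highest at the top, at 0.277.

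Cells that lay near a source cell were compared with cells farther off, to see whether a level ran on past the labelled cells. Over cells of other subclasses, the Bcan level 10 to 20 µm from an opossum OPC was 1.49 (12 UMIs in 62 cells), against 0.626 at 40 to 80 µm, a ratio of 2.38 [1.17 to 4.44]. Among glutamatergic cells alone the ratio was 0.709 from 2 UMIs near the source. Opossum Ptprz1 was 1.61-fold [1.28 to 2.01] higher near astrocytes than far from them, beside 1.23 for 3 astrocyte markers, and opossum Hapln4 2.26-fold [1.28 to 3.84] higher near L5PT cells. Mouse Hapln4 was likewise 1.49-fold [1.04 to 2.12] higher near L5PT cells, and 1.89-fold [1.23 to 2.85] among glutamatergic cells alone. Since Hapln4 also varied with depth, where L5PT cells lie, nearness and layer cannot be told apart. Near Pvalb cells the Hapln4 ratio was 1.03 [0.523 to 1.86] in opossum and 0.993 [0.666 to 1.44] in mouse, while Gad1 and Gad2 together gave 2.12 and 1.47. Mouse Vcan gave 0.426 [0.0499 to 1.64] near OPC but 3.03 [1.70 to 5.44] near OD cells, with 29 UMIs near and 24 far. Mbp and Mog together gave 1.53 [1.43 to 1.63] near OD cells. Mouse Vcan lay deep, as did OD cells (median relative depth 0.843), so nearness and layer cannot be told apart here either. Mouse Hapln1 gave 2.63 [1.35 to 5.09] near astrocytes and 2.03 [1.01 to 4.04] near OD cells. Among glutamatergic cells alone these ratios were 1.62 [0.696 to 3.58] and 1.49 [0.541 to 3.80]. Opossum Hapln1 gave 1.00 [0.609 to 1.59] near astrocytes and 0.402 [0.169 to 0.824] near OD cells, the latter from 8 UMIs near and 97 far. Mouse Acan gave 8.28 [2.07 to 47.5] near astrocytes from 9 UMIs near and 3 far, 5.27 [1.27 to 20.7] near Pvalb cells from 5 near and 6 far, and 5.89 [0.996 to 40.2] near L5PT cells from 4 near and 3 far.

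Among other genes of the matrix, from 3 lists of enzymes of chain synthesis, binding partners, and proteases with their inhibitors, several were called in OPC. In opossum OPC 3 of 9 synthesis genes, 3 of 9 partners and 2 of 7 proteases or inhibitors were called, beside 12.1% of all genes tested there, and 3 of these 8 rest on 3 to 5 UMIs. Ust, which sulfates chondroitin chains at the uronic acid, stood at 3.11 in opossum OPC from 13 UMIs, a fold of 13.0 [6.73 to 22.9], and Chst11, a chondroitin 4-O-sulfotransferase, had a fold of 2.61 [1.30 to 4.71]. The others were Chst15 (3 UMIs), Sema3a (5 UMIs), Cntn1 with 2.41, Lgi1 with 2.82, Mmp16 with 2.81 and Timp4 (5 UMIs). In mouse OPC 4 of 15 synthesis genes were called and 0 of 9 partners and 0 of 6 proteases or inhibitors, beside 5.01% of all genes tested there. The 4 were Xylt1, which starts the sugar chain, with a fold of 3.37 [2.32 to 4.75], Chst11 with 3.22 [1.81 to 5.32], B4galt7 with 2.12 [1.01 to 3.97] and Ust with 2.00 [0.794 to 4.21]. Chst11 was the only listed gene called in opossum Pvalb cells, with a fold of 2.19 [1.69 to 2.81]. Opossum astrocytes had Chst15 with 2.09, and the protease inhibitor genes Timp3 with 2.18 and Timp4 with 2.86. Opossum OD cells had Adamts4, a protease that cuts lecticans, with 3.78 [2.90 to 4.87], Timp4 with 2.76 and Chst7 with 2.30. No listed gene was called in mouse Pvalb, Astro or OD cells. The median folds of the lists in OPC were 0.91, 1.18 and 1.61 in opossum and 0.99, 0.89 and 0.63 in mouse.

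The genes most like each member in their levels across subclasses were found by Pearson's r of log2(level + 0.01) over 11 opossum or 17 mouse subclasses, a description over points that share 1 library. The names depend on the measure: with Spearman's rho fewer than 2 of the 3 genes were kept for 11 of 12 members, and with a minimum of 500 UMIs for 3 of 8. For opossum Bcan they were ZCCHC24 and GNG10 with r of 0.934 and 0.928 after an unnamed gene with 0.947, for Tnr THOC1, GLI4 and RSL24D1 with 0.909 to 0.925, and for Hapln4 MRPS23 and UBE3C with 0.894 and 0.893 after an unnamed gene with 0.927. Opossum Hapln1 had COPS4, TCF7L2 and NDUFA13 with 0.838 to 0.856, Cspg5 had SLC2A1 with 0.915 between 2 unnamed genes, and Ptprz1 had AKAP8 and VPS37A with 0.896 and 0.883 on either side of an unnamed gene. In the mouse, Hapln4 was most like Yme1l1, Rpusd1 and Endog with 0.964 to 0.970, and Ncan most like Selenos, Wwp2 and Dlg5 with 0.893 to 0.905. Mouse Bcan had Foxk1, Grin2c and Pcca with 0.781 to 0.784, Tnr had Usp32, Ctsf and Zc3h13 with 0.739 to 0.857, Cspg5 had Mrpl41, Maged1 and Sh3bp1 with 0.803 to 0.835, and Ptprz1 had Lrp1, Nckap5 and Eif4a2 with 0.708 to 0.781. No member was among the 3 genes most like another member.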

How the data were processed

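Stereo-seq was performed by the authors on 1 section per species, and reads were processed with the Stereo-seq Analysis Workflow. The values the authors deposited are raw UMI counts, not normalized, for each gene in each segmented cell, with cell positions, V1 regions, filter results and nearest-neighbor class and subclass labels. Their filter kept cells with at least 50 genes and 100 UMIs. From these counts, UMIs were summed over the cells of each subclass and divided by all UMIs of those cells. Subclasses with fewer than 25 agreeing cells were left out of orders and plots. Intervals came from scipy 1.17.1, tables from pandas 2.3.3 with numpy 2.4.6, and plots from matplotlib 3.10.9, all under Python 3.11.15. Each fold was computed for all genes with at least 100 UMIs in labelled cells, after the computation had been tested on simulated data. The simulated counts had Poisson spread only, so they cannot show how well the intervals hold where UMIs are clumped in few cells. With 1 animal per species no p-value was computed.

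The members and gene lists were chosen with earlier results of these data known. Genes named are the 9 members, the 3 genes most like each member with at least 200 UMIs, and listed matrix genes called at 2-fold or more. Distances were taken between cell centres, with 2 spatial units per µm. Doublets were not called, since cells were segmented on an image. The settings varied were a stricter filter (200 genes, 300 UMIs), the subclass label alone, first-round labels, means over cells, thinning to 500 UMIs, marker-positive cells (Gad1 or Gad2 for opossum Pvalb), other call rules, Spearman's rho or a minimum of 500 UMIs for the genes most alike, each V1 region left out, and the removal of the cell with the most UMIs, which alone was added after seeing the data. The single-nucleus data of the study were not used here.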

Additional observations from a re-analysis of the deposited data

How the results depend on the processing

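No paired analysis was possible because each species had 1 library and no test was run. Of the folds recomputed under the alternatives, 691 moved by less than their interval or region spread, 87 moved and 10 crossed 1 (1 of them only without a region), and the stricter filter on cells moved none of 76. The cause was not tested for any of them. First-round labels gave folds of 3.57 for opossum Hapln1 and 2.15 for Cspg5 in Astro, and in the mouse 29.0 for Acan in Pvalb (level 0.578), 28.2 for Vcan in OPC (level 3.11), 1.86 for Cspg5 in Astro, 0.646 for Tnr in OD and 1.05 for Cspg5 in OD, with an opossum Tnr level of 5.36 in OPC. Marker-positive cells gave, in the opossum, 1.21 for Hapln1 in Astro, 1.88 for Hapln4 in Pvalb, 2.29 for Bcan, 1.19 for Tnr and 1.79 for Ptprz1 in OPC, 1.20 for Cspg5 in Astro and 0.908 in OD. In the mouse they gave 1.82 for Acan in Pvalb, 1.02 for Bcan and 1.00 for Cspg5 in Astro, 2.77 for Vcan, 1.54 for Tnr and 1.82 for Ptprz1 in OPC, and folds below 1 for Hapln1 in Astro (0.692) and OPC (0.772), Tnr in OD (0.824), Cspg5 in OPC (0.931) and Ptprz1 in Astro (0.905). The subclass label alone gave opossum OPC folds of 4.26 for Bcan (level 2.63) and 3.45 for Tnr (level 1.39), and a mean over cells gave 16.2 for Tnr (level 5.43). Thinned shares of cells gave 1.66 for opossum Cspg5 in Astro, and in the mouse 2.49 for Tnr and 3.48 for Ptprz1 in OPC, 1.33 for Cspg5 in Astro and 0.955 for Tnr in OD. Near opossum OPC, glutamatergic cells alone gave 0.709 for Bcan. Without the cell with the most UMIs, chosen after the data had been seen, mouse Hapln1 in OPC had a fold of 1.35. With raw UMIs the mean depth was 0.558 for opossum Hapln1 and 0.516 for Cspg5, and for mouse Hapln1, Hapln4, Bcan, Ncan, Tnr and Cspg5 it was 0.412, 0.516, 0.506, 0.529, 0.513 and 0.510. In neurons it was 0.422 for opossum Ptprz1, and 0.348, 0.460, 0.439, 0.462 and 0.446 for mouse Hapln1, Hapln4, Bcan, Tnr and Cspg5, and by rank 0.490 for mouse Cspg5. The mean depth of the neurons themselves was 0.483 in opossum and 0.460 in mouse, against 0.493 and 0.487 for all cells. A changed depth in neurons is thus not by itself a shift of the gene against its reference. No reference weighted by raw UMIs is given here for the raw depths. Leaving out 1 region at a time, the mouse Hapln1 fold in OPC ran from 0 to 6.22 (level 0 to 0.468), and the mouse Tnr level in OPC from 4.07 to 5.88. Over the 8 comparisons, 185 to 995 genes were called, against 771 to 1824 at 1.5-fold, 42 to 331 at 3-fold, 352 to 1459 with a minimum of 50 UMIs and 55 to 301 with 300 UMIs. Few UMIs of Acan and mouse Hapln1, and 29 opossum OPC, limit what these sections can resolve.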
